A study of Mus musculus with 9 samples.

Results

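The superoxide dismutases Sod1, Sod2 and Sod3, catalase (Cat) and the glutathione peroxidases Gpx1, Gpx2, Gpx3 and Gpx4 were followed in mouse lung after particle exposure. These 8 genes were taken by symbol, and all 8 were found among the 18875 genes of the authors' deposited expression table. Their messenger RNA was measured by sequencing of whole lung in 9 libraries from wild-type (WT) BALB/c mice, an inbred laboratory strain, with 3 libraries in each of 3 groups. The long-term PM2.5 group was given PM2.5 (particulate matter of small diameter from air) as nose drops, 10 mg/kg each time, in 6 doses spaced by 3 days. The short-term PM2.5 group was given that dose 1 time. The PBS group was labelled as a long-term exposure to PBS (phosphate-buffered saline), so the long-term mice have a control of equal duration and the short-term mice do not. The labels give neither age nor the time from the last dose to collection. They also do not state that the 3 libraries of a group are 3 different mice, so every p-value below measures only the spread between these libraries, which may be technical.

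Superoxide dismutases turn superoxide, the radical made by the respiratory chain and by NADPH oxidases, into hydrogen peroxide and oxygen. Catalase and the glutathione peroxidases then remove the peroxide, catalase by splitting it in the peroxisome and the glutathione peroxidases by spending glutathione. The family is divided by place: Sod1 works with copper and zinc in the cytosol, Sod2 with manganese in the mitochondrion and Sod3 with copper and zinc outside cells, where the lung is one of the tissues richest in it. Gpx1 is the general intracellular peroxidase, Gpx2 the form of mucosal epithelia, Gpx3 the secreted form found in plasma and airway lining fluid, and Gpx4 the enzyme that reduces lipid peroxides within membranes and restrains ferroptosis.

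The 4 glutathione peroxidases studied here carry selenocysteine, an amino acid encoded by TGA, which elsewhere is a stop codon. Their selenocysteine codons are shown because the group depends on selenium supply, which is taken up again below. The annotation of GRCm38 (GENCODE release M21) places the codon at chr9:108339451-108339453 on the plus strand in Gpx1, at chr12:76795256-76795258 on the minus strand in Gpx2, at chr11:54907256-54907258 on the plus strand in Gpx3 and at chr10:80054737-80054739 on the plus strand in Gpx4. The lines give the coding strand 5′ to 3′ with the selenocysteine codon in capitals and coding sequence on both sides.
Gpx1: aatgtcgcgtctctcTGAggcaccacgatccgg
Gpx2: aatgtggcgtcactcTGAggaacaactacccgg
Gpx3: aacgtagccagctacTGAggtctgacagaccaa
Gpx4: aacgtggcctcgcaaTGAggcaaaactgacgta
In each of the 4 the TGA is followed by a glycine codon beginning with gg.

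Levels are given in TPM, a unit that is divided by transcript length and scaled so that each library has the same total. In long-term lungs the order by mean level was Gpx3, at 1315 ± 64.2 TPM (SD, n = 3), Sod1, Gpx4, Gpx1, Sod3, Cat, Gpx2 and, last, Sod2 at 42.9 ± 2.05 TPM, in which Sod1 overlapped Gpx4 and Gpx1 overlapped Sod3. In short-term lungs Gpx3 again led, at 2107 ± 401 TPM, Gpx4 stood above Sod1 with overlapping values, and Gpx2, Cat and Sod2 overlapped at the bottom, averaging 118 ± 28.7, 96.1 ± 31.1 and 93.85 ± 10.3 TPM. In PBS lungs Gpx3 was also the most abundant of the 8, at 1498 ± 43.0 TPM, followed by Sod1 at 883 ± 73.1, Gpx4 at 759 ± 32.6, Sod3 at 498 ± 23.9, Gpx1 at 401 ± 3.89 and Cat at 223 ± 7.61 (SD, n = 3 each). Sod2 and Gpx2 came last at 34.3 ± 0.721 and 33.2 ± 3.85 TPM, and they were the only neighbours in that order whose 3 values overlapped. By rank among all 18875 genes, Gpx3 was number 71 in long-term, 48 in short-term and 51 in PBS lungs, and Gpx2 was number 2001 in long-term, 1076 in short-term and 4017 in PBS lungs. The genes lie apart in the genome (GRCm38): Sod1 (gene ID 20655) at chr16:90220762-90226333, Sod2 (20656) at chr17:13007839-13018119, Sod3 (20657) at chr5:52363804-52369738 and Cat (12359) at chr2:103453904-103485153. Gpx1 (14775) is at chr9:108339080-108340342, Gpx2 (14776) at chr12:76792335-76795554, Gpx3 (14778) at chr11:54902854-54910387 and Gpx4 (625249) at chr10:80047166-80056439. All 8 genes exceeded 1 TPM in all 9 libraries, so none entered the tests through 1 group alone.

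**Figure D1:**
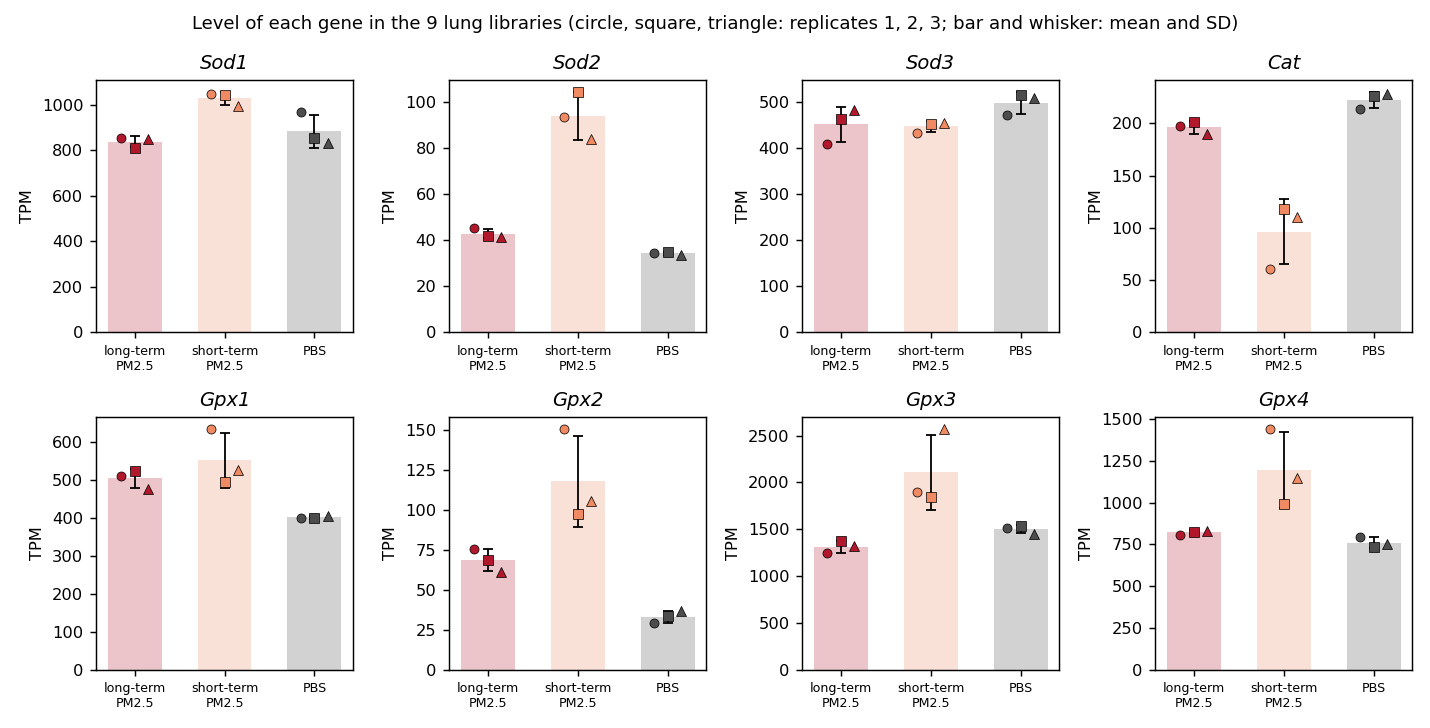
Level in TPM of each of the 8 genes in the long-term PM2.5, short-term PM2.5 and PBS libraries, on linear axes from 0. Points are libraries, bars are means and whiskers are SD (n = 3 each). Sod2 and Gpx2 stand highest and Cat lowest in the short-term group, at 93.85, 118 and 96.1 TPM on average.

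A few properties of the whole table touch every value below. The labelled tissue showed its markers: 8 genes of alveolar type 2 cells summed to at least 30540 TPM in every library. Between libraries, Spearman's correlation over genes was 0.960 to 0.993 within a group and 0.893 to 0.976 between groups. The short-term libraries fell with transcript length: relative to the PBS mean, genes of at least 6399 nt differed from genes of at most 1212 nt by -1.68, -0.82 and -1.03 on the log2 scale in short-term replicates 1, 2 and 3. The same quantity ran from -0.21 to -0.14 over the long-term lungs and from -0.06 to 0.04 over the PBS lungs. Short-term replicate 1 stands apart most, with 12560 genes reaching 1 TPM, while the other 8 libraries had 13175 to 13930. Over all 13991 tested genes the median log2 difference was 0.03 in the long-term comparison with PBS, -0.34 in the short-term comparison with PBS and 0.41 between the PM2.5 groups, long-term over short-term. Each comparison is therefore also given with a smooth trend in transcript length and GC content removed from each library, called the trend-removed value, after which these medians were -0.07, -0.02 and -0.03. The cause of the length trend was not tested. A difference is given on the log2(TPM + 1) scale with the standard error of the fit, and it is called where limma's Benjamini-Hochberg adjusted p is under 0.05.

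Long-term PM2.5 set against the PBS group of matched duration left most of the family near its PBS level. Of the 8 genes, 1 was called, Gpx2, which rose; among all tested genes 11.2% were called (9.51% higher and 1.72% lower), so 1 of 8 is close to the background. Gpx2 had 75.60, 68.90 and 61.49 TPM in long-term lungs, against 29.23, 33.38 and 36.92 TPM in PBS lungs. The lowest long-term library lay well above the highest PBS library. The difference was 1.03 ± 0.17 (SE) on the log2 scale, adjusted p = 0.00312 in limma, and the ratio of mean TPM was 2.07. With the trend removed it was 0.80 ± 0.15 (adjusted p = 0.00297). In whole tissue, more cells of a type and more RNA per cell cannot be told apart, and this holds for every gene below.

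Gpx2 is a gene of epithelia, so markers of lung cell types were read beside it. Of 11 tested goblet and club cell markers 7 were higher and 0 lower in long-term lungs (7 and 1 with the trend removed). Of the ciliated cell markers 8 of 8 were higher, as deposited and with the trend removed. Among all tested genes 9.51% were higher there as deposited and 13% with the trend removed. Summed levels of the markers were 157349 to 181334 TPM in long-term lungs against 149102 to 185069 TPM in PBS lungs for goblet and club cells, and 693 to 873 TPM against 315 to 343 TPM for ciliated cells. In short-term lungs, where Gpx2 was higher still, 2 of the 11 goblet and club cell markers were higher and 2 lower, with sums of 108997 to 130826 TPM. There 1 of the 8 ciliated markers was higher and 2 lower, with sums of 291 to 377 TPM. Among all tested genes 11.7% were higher and 40.3% lower in that comparison. With the trend removed 4 goblet and club cell markers were higher and 3 lower, and 0 ciliated markers were called, against 23.8% higher and 26.2% lower. No marker of either list was at 0 in all libraries, and the part of cell makeup in the Gpx2 result was not tested.

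Gpx1 and Sod2 lay higher in every long-term library than in every PBS library without being called. Gpx1 had 510.12, 522.95 and 475.86 TPM in long-term lungs, against 398.07, 400.06 and 405.58 TPM in PBS lungs, a difference of 0.32 ± 0.11 (adjusted p = 0.103 in limma). For Sod2 the values were 45.24, 41.86 and 41.53 TPM in long-term lungs, against 34.43, 34.92 and 33.50 TPM in PBS lungs, a difference of 0.31 ± 0.11 (adjusted p = 0.122). Both genes were called higher in 2 other fits, a fit of the compared groups alone (adjusted p = 0.00981 for Gpx1 and 0.0107 for Sod2) and a fit without short-term replicate 1 (0.0132 and 0.0406). With the trend removed, Gpx1 differed by 0.16 (adjusted p = 0.179) and Sod2 by 0.30 (adjusted p = 0.283). Sod2 was called higher when short-term replicate 1 was also left out (adjusted p = 0.0037 in limma) and Gpx1 was not (0.0965). With quantile normalization Sod2 was likewise called higher (adjusted p = 0.0469) and Gpx1 was not (0.0908).

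Cat, Gpx3, Gpx4 and Sod3 were not called between long-term and PBS lungs, as deposited or with the trend removed. Cat had 197.86, 200.84 and 189.63 TPM in long-term lungs, against 213.88, 226.29 and 227.73 TPM in PBS lungs, so the groups did not overlap, but the difference of -0.18 ± 0.21 was not called (adjusted p = 0.737). Gpx3 had 1248.41, 1376.36 and 1321.25 TPM in long-term lungs, against 1509.94, 1533.34 and 1450.05 TPM in PBS lungs, again with no overlap and again not called (-0.19 ± 0.14, adjusted p = 0.519). Gpx4 had 808.13, 826.67 and 831.38 TPM in long-term lungs, against 795.39, 731.82 and 751.20 TPM in PBS lungs, and Sod3 had 408.95, 462.87 and 481.41 TPM in long-term lungs, against 470.68, 515.00 and 508.20 TPM in PBS lungs. The Gpx4 values just failed to overlap, and those of Sod3 overlapped. Gpx4 differed by 0.11 ± 0.13 (95% interval -0.18 to 0.41) and Sod3 by -0.14 ± 0.10 (-0.37 to 0.08), so a change of more than about 0.41 in either direction lies outside both intervals. The standard error of Cat comes from the spread pooled over all 9 libraries, and its interval ran from -0.64 to 0.28. With the trend removed the differences were -0.32 for Cat (adjusted p = 0.0525), -0.34 for Gpx3 (adjusted p = 0.0795), -0.0020 for Gpx4 (adjusted p = 0.987) and -0.22 for Sod3 (adjusted p = 0.207). Cat was called lower when short-term replicate 1 was also left out (adjusted p = 0.00556). In all, 6 of the 8 genes had long-term and PBS values that did not overlap, against 43.2% of all tested genes.

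Sod1 was not called as deposited and was called with the trend removed. It had 853.37, 810.75 and 849.61 TPM in long-term lungs, against 966.45, 852.35 and 830.33 TPM in PBS lungs, and the groups overlapped. As deposited the difference was -0.07 ± 0.10 (adjusted p = 0.799 in limma); with the trend removed it was -0.31 ± 0.09 and was called lower (adjusted p = 0.0269). Its transcript, of 641 nt, is the shortest of the 8. Of all 20 alternative settings, only this one and the same correction without short-term replicate 1 (adjusted p = 0.0125) called it in this comparison. With the longest transcript of any kind the difference was -0.17 (adjusted p = 0.496). With the trend removed 2 of the 8 genes were thus called, Gpx2 higher and Sod1 lower, against 25.9% of all tested genes.

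Short-term PM2.5 set against PBS moved more of the family, and in both directions. Sod2, Gpx1, Gpx2, Gpx3 and Gpx4 were higher and Cat was lower, 6 of 8 called against 51.9% of all tested genes. By direction, 5 of 8 were higher against 11.7% of all tested genes, and 1 of 8 was lower against 40.3%. After removal of the trend 6 of 8 were called against 50.1%: Sod2, Gpx2, Gpx3 and Gpx4 were higher, 4 of 8 against 23.8%, and Cat and Sod1 were lower, 2 of 8 against 26.2%. The Sod1 call depends on which transcript is used, as given below, and with the longest transcript of any kind 4 were higher and 1 lower. All 8 genes had short-term and PBS values that did not overlap, which held for 60.3% of all tested genes.

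Sod2, the mitochondrial dismutase, had 93.50, 104.35 and 83.70 TPM in short-term lungs, against 34.43, 34.92 and 33.50 TPM in PBS lungs. Even the lowest short-term library lay far above the highest PBS library. The difference was 1.42 ± 0.11 (adjusted p = 3.08e-05 in limma), a ratio of mean TPM of 2.74. Sod2 has the longest transcript of the 8, at 5861 nt, and tested genes of 5526 to 6399 nt had a median difference of -0.81 in the same comparison, with an interquartile range of -1.09 to -0.47. Sod2 thus went against the course of genes of its length, and with the trend removed its difference was 2.23 ± 0.20 (adjusted p = 1.83e-05).

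Gpx2 had 150.69, 97.39 and 105.58 TPM in short-term lungs, against 29.23, 33.38 and 36.92 TPM in PBS lungs. All short-term values were far above all PBS values, and short-term replicate 1 was the highest. The difference was 1.78 ± 0.17 (adjusted p = 8.9e-05 in limma), a ratio of mean TPM of 3.55, and 1.47 ± 0.15 with the trend removed (adjusted p = 3.7e-05). Genes of 910 to 1212 nt, the class that holds Gpx1, Gpx2 and Gpx4, had a median difference of 0.24.

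Cat was the only one of the 8 called lower as deposited. It had 60.42, 117.72 and 110.08 TPM in short-term lungs, against 213.88, 226.29 and 227.73 TPM in PBS lungs. Short-term replicate 1 had the lowest value, and the other short-term libraries were also well below every PBS library. The difference was -1.26 ± 0.21 (adjusted p = 0.00122 in limma), a ratio of mean TPM of 0.432. Genes of 2530 to 2741 nt, the length class of Cat, had a median of -0.27. Once the trend was removed Cat remained lower at -0.95 ± 0.11 (adjusted p = 9.38e-05), and at -0.82 when short-term replicate 1 was also left out.

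Gpx4 and Gpx3 rose less. Gpx4 had 1440.09, 990.69 and 1148.52 TPM in short-term lungs, against 795.39, 731.82 and 751.20 TPM in PBS lungs, with replicate 1 highest. The difference was 0.63 ± 0.13 (adjusted p = 0.0038 in limma) as deposited and 0.31 ± 0.08 (adjusted p = 0.0105) with the trend removed, so the correction for length and GC content lowered its size and kept its call. Gpx3 had 1902.28, 1848.70 and 2569.24 TPM in short-term lungs, against 1509.94, 1533.34 and 1450.05 TPM in PBS lungs; here replicate 3 was highest. Its difference was 0.48 ± 0.14 (adjusted p = 0.0147) as deposited and 0.36 ± 0.13 (adjusted p = 0.0407) with the trend removed. The Gpx3 call was lost without PBS replicate 3 (0.45, adjusted p = 0.0506) and with quantile normalization (-0.0073, adjusted p = 0.971).

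The Gpx1 call did not outlast the removal of the trend. Gpx1 had 632.81, 493.79 and 524.95 TPM in short-term lungs, against 398.07, 400.06 and 405.58 TPM in PBS lungs, a difference of 0.45 ± 0.11 (adjusted p = 0.00848 in limma) as deposited. With the trend removed it was 0.14 ± 0.08 (adjusted p = 0.188). Sod1 turned in direction: its 1047.15, 1042.51 and 993.88 TPM in short-term lungs, against 966.45, 852.35 and 830.33 TPM in PBS lungs, gave 0.22 ± 0.10 (adjusted p = 0.085) as deposited and -0.26 ± 0.09 (adjusted p = 0.03) with the trend removed. The correction by the longest transcript of any kind, 3970 nt for Sod1, turned it again, to 0.69 (adjusted p = 0.00569, called higher). Tested genes of at most 909 nt, the length class of Sod1, had a median of 0.40. Sod3, the extracellular dismutase, had 433.13, 451.48 and 454.95 TPM in short-term lungs, against 470.68, 515.00 and 508.20 TPM in PBS lungs, and was called in neither form (-0.16 as deposited and 0.24 with the trend removed). The directions of Sod1 and Sod3 in this comparison thus changed with the setting.

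**Figure D2:**
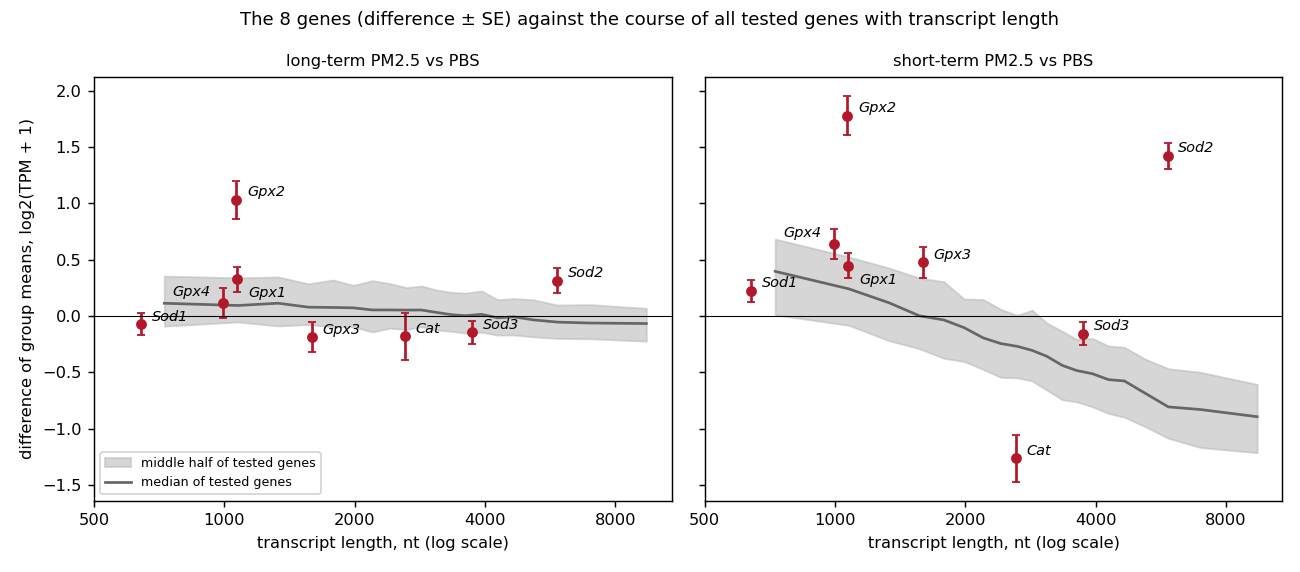
Difference of each of the 8 genes (points, whiskers SE) for long-term PM2.5 against PBS (left) and short-term PM2.5 against PBS (right), by transcript length in nt on a log axis. The line is the median and the band the interquartile range of tested genes in length classes. On the right Sod2 stands at 1.42 where the median of its length class is -0.81, while Sod1, Gpx1 and Sod3 lie nearer the medians of their classes, 0.40, 0.24 and -0.48.

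Markers of inflammatory cells were read in the short-term libraries, where 11.7% of all tested genes were higher than in PBS lungs (23.8% with the trend removed). Of 10 neutrophil markers 8 were higher and 0 lower than in PBS lungs, with summed levels of 1031 to 1561 TPM in short-term lungs against 378 to 625 TPM in PBS lungs. Of 12 macrophage markers 6 were higher and 2 lower, with sums of 588 to 659 TPM against 339 to 404 TPM. Both counts were the same with the trend removed. Beside the fall of Cat, 5 of 7 tested adipose markers were lower (33.6 to 86.6 TPM in short-term lungs, 96.9 to 277 TPM in PBS lungs), as were 5 of 8 fibroblast markers (619 to 914 TPM against 1103 to 1256 TPM). Lower too were 5 of 8 endothelial markers (3107 to 3578 TPM in short-term lungs, 4039 to 4377 TPM in PBS lungs), 5 of 8 alveolar type 1 cell markers, with 2 higher (7575 to 9873 TPM against 7896 to 8783 TPM), and 4 of 8 cardiac muscle markers (612 to 928 TPM against 890 to 1321 TPM), where 40.3% of all tested genes were lower. With the trend removed, when 26.2% were lower, these 5 lists had 4, 5, 5, 5 and 6 lower, in the same order. In long-term lungs, where Cat was not called, they had 0, 1, 5, 1 and 3 lower, against 1.72% of all tested genes. With the trend removed the long-term counts were 3, 1, 7, 6 and 6 lower, against 12.9%. Among these lists only fibroblast markers had any higher in long-term lungs, 1 as deposited and 3 with the trend removed. Endothelial markers summed to 2765 to 3087 TPM in long-term lungs. In short-term lungs alveolar type 2 cell markers, of which 1 of 8 was higher and 2 lower (4 and 1 with the trend removed), summed to 30540 to 36604 TPM, against 44906 to 46063 TPM in PBS lungs. Of 8 smooth muscle and pericyte markers 3 were higher and 3 lower there (4 and 0 with the trend removed). Of 7 tested red cell markers 1 was lower and 0 higher in short-term lungs, and 4 were lower and 0 higher in long-term lungs. Red cell sums were 35090 to 67322 TPM in short-term, 17932 to 30042 TPM in long-term and 50044 to 75481 TPM in PBS lungs. Liver markers, read because Cat is abundant in that organ, summed to at most 10.6 TPM in any library, with Fgb at 0 throughout. No marker of the other lists was at 0 in all libraries, and the part of these cell types in the results was not tested.

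Long-term set against short-term PM2.5 compares directly the levels after repeated and single exposure. The PM2.5 groups may also differ in the time from last dose to collection, which the labels do not give. The short-term libraries also carry the length trend. Cat was higher in long-term lungs, and Sod1, Sod2, Gpx2, Gpx3 and Gpx4 were lower. These are 6 of 8, against 50.5% of all tested genes; 1 of 8 was higher against 43.4%, and 5 of 8 lower against 7.08%. Values of both groups are given above; they did not overlap for Cat, Sod1, Sod2, Gpx2, Gpx3 and Gpx4, 6 of 8 against 60.1% of all tested genes. Cat differed by 1.08 ± 0.21 (adjusted p = 0.00311 in limma), Sod2 by -1.11 ± 0.11 (adjusted p = 0.000143) and Gpx2 by -0.75 ± 0.17 (adjusted p = 0.00636). Gpx3 differed by -0.66 ± 0.14 (adjusted p = 0.00398) and Gpx4 by -0.52 ± 0.13 (adjusted p = 0.0106). Gpx1 differed by -0.12 with a 95% interval of -0.37 to 0.13, and Sod3 by 0.01 with an interval of -0.21 to 0.24.

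When the trend was removed 6 of 8 were again called, against 41.4% of all tested genes (19.2% higher and 22.2% lower), Sod3 now among them and Sod1 not. Cat stayed higher in long-term lungs at 0.62, and Sod2 at -1.93, Gpx2 at -0.67, Gpx3 at -0.71 and Gpx4 at -0.31 stayed lower. Sod3 was lower at -0.47 (adjusted p = 0.0124 in limma), and Sod1 at -0.05 was not called (adjusted p = 0.696). This reading of Sod1 rests on the choice of transcript: with the longest annotated transcript of any kind, 3970 nt in place of 641 nt, Sod1 was lower at -0.86 (adjusted p = 0.0026), and 7 of 8 genes were called, Sod1 and Sod3 both lower. The Sod1 call of the deposited values, -0.29 ± 0.10 with adjusted p = 0.0327, was also lost without long-term replicate 1 (adjusted p = 0.0756), 2 (0.111) or 3 (0.0748) and without short-term replicate 2 (0.0508) or 3 (0.0502).

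**Figure D3:**
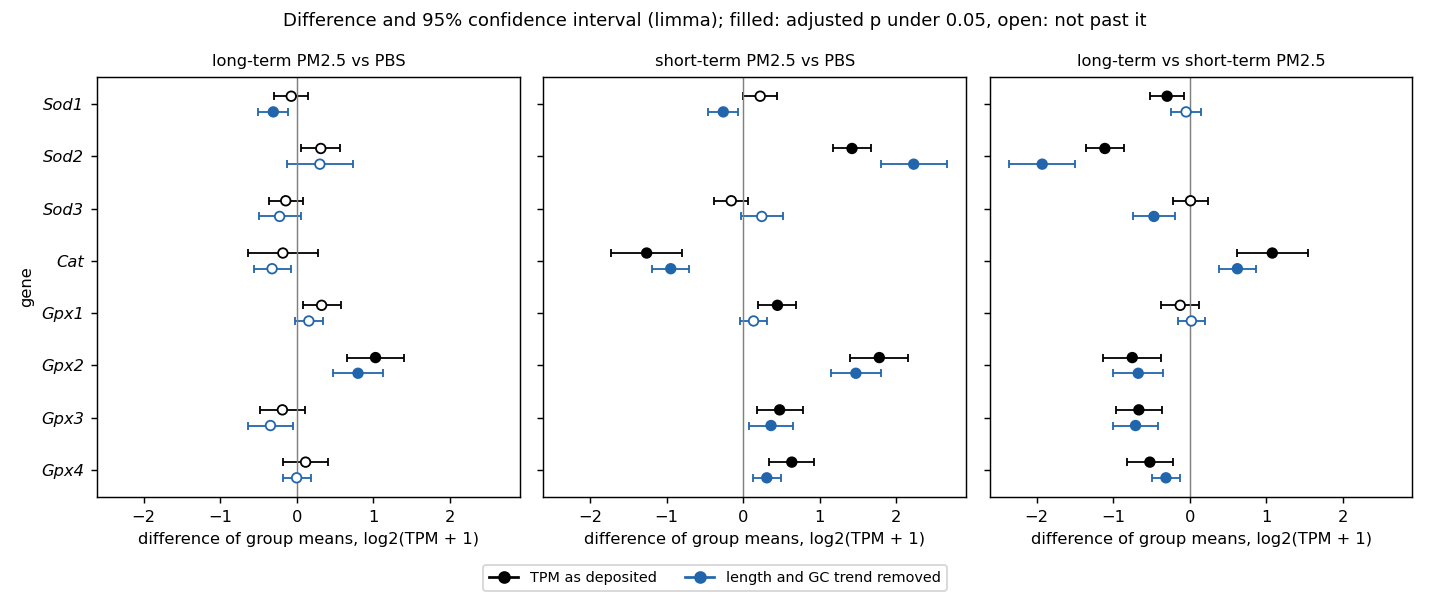
Difference of group means on the log2(TPM + 1) scale with its 95% confidence interval for the 8 genes, from TPM as deposited (black) and with the length and GC trend removed (blue), in the 3 comparisons. Filled points passed adjusted p under 0.05 in limma. Sod2, Gpx2, Gpx3, Gpx4 and Cat are filled in both colours in the short-term against PBS and the long-term against short-term panels. Gpx2 alone is filled in both colours in the long-term against PBS panel.

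Ratios within a library show how the balance between enzymes stood. Gpx1 per Cat, the peroxide-removing enzymes of cytosol and peroxisome, was 2.58, 2.60 and 2.51 in long-term lungs and 10.5, 4.19 and 4.77 in short-term lungs, against 1.86, 1.77 and 1.78 in PBS lungs. The 3 groups did not overlap, and short-term replicate 1 was far above the rest. Sod2 made up 3.22 ± 0.220% of the summed TPM of the 3 dismutases in long-term lungs and 5.98 ± 0.534% in short-term lungs, against 2.42 ± 0.0768% in PBS lungs (SD, n = 3 each). Gpx2 made up 2.54 ± 0.294% of the summed TPM of Gpx1 to Gpx4 in long-term lungs and 2.97 ± 0.623% in short-term lungs, against 1.23 ± 0.163% in PBS lungs. The dismutase sum was 1332 ± 35.5 TPM in long-term and 1568 ± 33.3 TPM in short-term lungs, against 1415 ± 51.0 TPM in PBS lungs. The peroxidase sum was 2709 ± 78.1 TPM in long-term and 3968 ± 479 TPM in short-term lungs, against 2692 ± 44.8 TPM in PBS lungs. These sums and shares were not tested, and those that set genes of unequal length side by side carry the length trend of the short-term libraries.

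**Figure D4:**
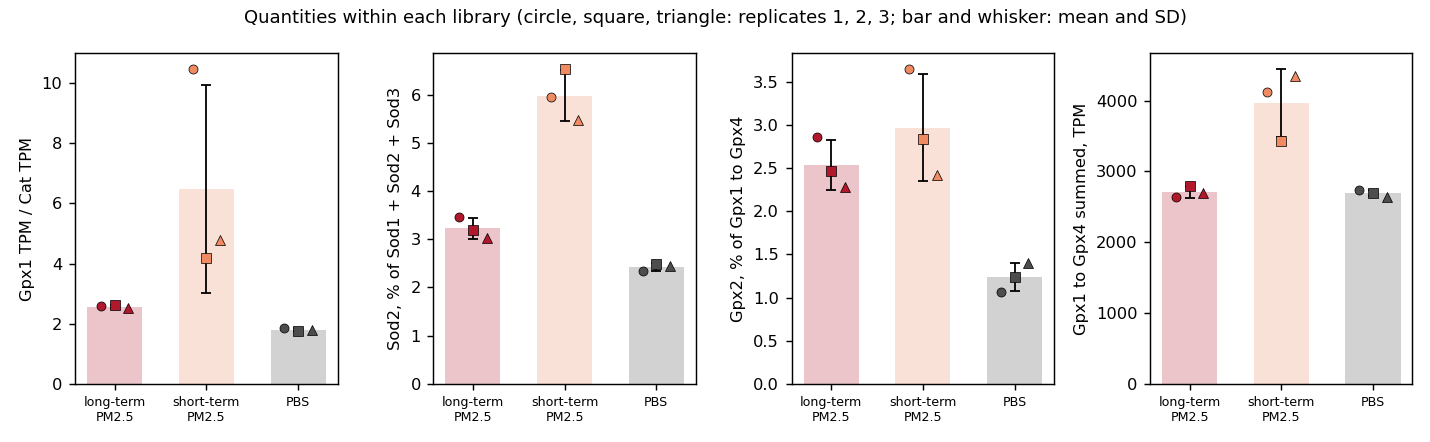
Gpx1 per Cat, Sod2 as a percentage of the 3 dismutases, Gpx2 as a percentage of Gpx1 to Gpx4 and the summed TPM of Gpx1 to Gpx4, in long-term PM2.5, short-term PM2.5 and PBS libraries. Points are libraries, bars means and whiskers SD (n = 3 each), on axes from 0. Gpx1 per Cat is 2.51 to 2.60 in long-term lungs, 4.19 to 10.5 in short-term lungs and 1.77 to 1.86 in PBS lungs.

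The promoters of Sod2, Gpx2 and Cat are shown because these genes had the largest differences of the 8 in short-term against PBS lungs, as deposited and with the trend removed. They are windows of 250 bases before to 50 bases after the annotated start from RefSeq on GRCm38.p6, written 5′ to 3′ on the strand of the gene. The table held windows for 7 of the 8 genes, without Sod3. The Sod2 window is chr17:13007589-13007888 on the plus strand, with the GC box GGGCGG, a motif bound by Sp factors, in capitals.
Sod2: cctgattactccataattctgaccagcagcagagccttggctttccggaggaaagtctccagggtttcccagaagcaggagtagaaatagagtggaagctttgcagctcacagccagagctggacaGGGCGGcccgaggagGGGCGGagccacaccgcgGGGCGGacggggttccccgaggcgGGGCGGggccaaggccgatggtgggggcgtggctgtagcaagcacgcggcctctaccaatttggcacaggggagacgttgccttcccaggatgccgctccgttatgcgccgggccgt
The Gpx2 window is chr12:76795505-76795804 on the minus strand and is shown with no capitals; it holds 1 CCAAT box, at -71 from the start.
Gpx2: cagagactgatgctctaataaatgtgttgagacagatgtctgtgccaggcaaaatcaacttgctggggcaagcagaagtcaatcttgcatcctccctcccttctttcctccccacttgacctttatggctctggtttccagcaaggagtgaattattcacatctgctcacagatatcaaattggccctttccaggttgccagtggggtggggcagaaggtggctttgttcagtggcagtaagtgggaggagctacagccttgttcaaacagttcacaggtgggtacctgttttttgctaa
The Cat window is chr2:103485104-103485403 on the minus strand, with the CCAAT box in capitals, read as CCAAT on this strand or ATTGG from the other.
Cat: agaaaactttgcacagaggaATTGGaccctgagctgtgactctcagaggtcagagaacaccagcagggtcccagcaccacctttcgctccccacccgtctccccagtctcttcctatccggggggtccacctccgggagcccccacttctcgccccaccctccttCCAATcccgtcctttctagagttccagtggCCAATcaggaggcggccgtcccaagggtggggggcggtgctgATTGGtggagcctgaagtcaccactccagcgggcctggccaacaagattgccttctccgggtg

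Both strands of the windows were searched for 4 motifs, of which the GC box and the CCAAT box were added after the sequences had been seen. The Sod2 window held 4 GC boxes, and the Sod1 window also held 4 matches, at -146, -141, -102 and -98 from the start, where neighbours overlap; windows of Cat, Gpx1, Gpx3 and Gpx4 held this motif too. Across 32851 promoter windows 35.7% held at least 1. The Cat window held 4 CCAAT boxes; windows of Sod1, Sod2, Gpx2, Gpx3 and Gpx4 also held this motif, and 37.4% of all windows held at least 1. The antioxidant response element core TGACNNNGC, the motif bound by Nrf2, was found in the Sod1 window at -56 and in none of the windows of the other 6 genes; 12.4% of all windows held it. A single form of the NF-kB motif (GGGA, any base, TTTCC) was in none of the windows of these 7 genes and in 0.411% of all windows. Other forms of that motif were not searched for, so an NF-kB site within these windows, that of Sod2 included, is not excluded. A match is a description of letters, and its absence from 300 bases says nothing of elements elsewhere.

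The supply of metal and selenium to these enzymes was followed in lists of related genes, whose counts are set beside the background percentages given above. Of 14 genes for dismutase maturation and peroxisomal import, 0 were called in long-term against PBS lungs (median 0.03 as deposited, -0.03 with the trend removed). In short-term lungs 1 was higher and 5 lower (median -0.21, against -0.34 for all tested genes), where 11.7% of all tested genes were higher and 40.3% lower. With the trend removed 1 was higher and 3 lower, against 23.8% and 26.2% of all tested genes. Atox1, the copper chaperone, was higher in short-term lungs at 351 ± 103 TPM against 211 ± 28.6 TPM in PBS lungs (0.70, adjusted p = 0.0107 in limma). That call was lost with the trend removed (0.17, adjusted p = 0.18). Fbln5, the matrix protein that holds Sod3 at the vessel wall, was lower at 41.9 ± 15.3 TPM against 97.9 ± 5.99 TPM (-1.28, adjusted p = 0.00203; -0.49 with the trend removed, adjusted p = 0.00243). The copper pump genes Atp7a (-1.15) and Atp7b (-1.39) were lower and remained called with the trend removed at -0.44 and -0.69. Ccs, which loads copper into Sod1, differed by 0.26 (adjusted p = 0.0523), and the import receptor Pex5, which carries catalase into the peroxisome, by -0.36 (adjusted p = 0.0807). Neither was called. With the trend removed Ccs differed by -0.06 (adjusted p = 0.622 in limma) and Pex5 by -0.08 (adjusted p = 0.495).

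Among 13 genes of selenoprotein synthesis and selenium supply, 1 was higher and 0 lower in long-term lungs (2 and 1 with the trend removed), and 2 were higher and 2 lower in short-term lungs (6 and 1 with the trend removed). Selenop, which carries selenium in plasma, fell to 402 ± 124 TPM in short-term lungs, against 815 ± 22.2 TPM in PBS lungs (-1.07, adjusted p = 0.00219 in limma; -0.86 with the trend removed, adjusted p = 0.000246). In long-term lungs Selenop stood at 702 ± 34.4 TPM, called lower with the trend removed (-0.40, adjusted p = 0.0289) and not as deposited (-0.22, adjusted p = 0.66). Lrp8, a receptor for Selenop and the gene counted as higher in long-term lungs, had 1.01 ± 0.115 TPM in long-term and 0.820 ± 0.262 TPM in short-term lungs, against 0.417 ± 0.0503 TPM in PBS lungs. It passed the filter on low values only through libraries of the PM2.5 groups, so its counts as higher give no support. Of 15 other tested selenoprotein genes, 2 were higher and 0 lower in long-term lungs (3 and 2 with the trend removed), and in short-term lungs 4 were higher and 2 lower (6 and 0 with the trend removed). Msrb1, a methionine sulfoxide reductase, rose in both, to 203 ± 16.8 TPM in long-term lungs (0.69, adjusted p = 0.00192) and 266 ± 15.7 TPM in short-term lungs (1.08, adjusted p = 9.02e-05), against 126 ± 6.32 TPM in PBS lungs. Dio1, a thyroid hormone deiodinase, is the other gene counted as higher in long-term lungs, at 2.51, 1.93 and 2.47 TPM against 0.29, 0.37 and 0.43 TPM in PBS lungs. It passed the filter on low values only through the long-term group, so its count as higher gives no support. The other glutathione peroxidases tested, Gpx7 and Gpx8 of the endoplasmic reticulum, were called in no comparison, and Gpx6 was at 0.09 TPM or less in every library.

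Glutathione peroxidases need glutathione, which is made from cystine and kept reduced by NADPH. Of 18 genes of this supply, 6 were higher and 0 lower in long-term lungs, with a median of 0.27 (0.19 with the trend removed) against 0.03 for all tested genes. The 6 included Pgd, an NADPH-producing enzyme (110 ± 10.7 TPM against 70.0 ± 2.37 TPM in PBS lungs; 0.65, adjusted p = 0.00393 in limma), Idh1, another NADPH-producing enzyme (0.68, adjusted p = 0.0232), and Slc7a11, the cystine importer (2.07 ± 0.695 TPM against 0.443 ± 0.0709 TPM in PBS lungs), which passed the filter on low values only through libraries of the PM2.5 groups. In short-term lungs 7 were higher and 2 lower (9 and 1 with the trend removed), with Pgd at 0.64 (adjusted p = 0.00152) among the higher. Slc7a11, also counted as higher, had 2.09 ± 0.825 TPM there, and because of the filter its counts as higher give no support. Gclm, a subunit of the first enzyme of glutathione synthesis, was lower there at 24.7 ± 6.41 TPM against 52.0 ± 1.38 TPM in PBS lungs (-1.08, adjusted p = 0.00108), a call lost with the trend removed (-0.29, adjusted p = 0.0507). Of 12 peroxiredoxin and thioredoxin genes, which remove peroxide by another route, 1 was higher and 0 lower in long-term lungs, Txn1 (0.44, adjusted p = 0.0353), and 3 and 1 with the trend removed. In short-term lungs 7 were higher and 1 lower, and the median was 0.43 as deposited and 0.44 with the trend removed. Prdx5, which acts in mitochondria and peroxisomes, was higher at 276 ± 25.1 TPM in short-term lungs against 152 ± 8.38 TPM in PBS lungs (0.85, adjusted p = 0.000379). In long-term against short-term lungs 1 of the 12 was higher and 3 lower, or 1 and 9 with the trend removed.

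Sources of superoxide and peroxide were also read. Of 9 tested genes 6 were higher and 0 lower in long-term lungs, with a median of 0.80 (5 higher and 1 lower, Nox4, with the trend removed), and all 6 encode parts of the phagocyte NADPH oxidase or its Rac2 switch. Cybb, the catalytic subunit, had 70.4 ± 16.3 TPM in long-term lungs against 22.0 ± 2.42 TPM in PBS lungs (1.61, adjusted p = 0.00176 in limma). In short-term lungs 3 were higher and 2 lower (6 and 1 with the trend removed): Cyba, the partner subunit, was higher at 766 ± 239 TPM against 274 ± 13.6 TPM in PBS lungs (1.44, adjusted p = 0.000364), and Nox4 was lower at 6.61 ± 3.11 TPM against 19.1 ± 1.85 TPM in PBS lungs (-1.50, adjusted p = 0.00228). Cybb was called higher in short-term lungs with the trend removed (1.02, adjusted p = 9.29e-05) and not as deposited (0.33, adjusted p = 0.266). Macrophage markers moved with these genes in long-term lungs, where 9 of 12 were higher and 0 lower, with sums of 895 to 1260 TPM against 339 to 404 TPM in PBS lungs; their part was not tested.

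The series asks about the antioxidant function that Nrf2 directs, and Gpx2 is among the genes that Nrf2 is known to induce. Of 19 genes of the Nrf2 pathway, 2 were higher and 1 lower in long-term lungs (5 and 5 with the trend removed), and 5 were higher and 8 lower in short-term lungs (6 and 5). This list shares genes with the lists above, among them Slc7a11, which is counted as higher in both groups as deposited. Slc7a11 passed the filter only through libraries of the PM2.5 groups, so its counts as higher give no support here either. Nfe2l2, which encodes Nrf2, had 125 ± 8.05 TPM in long-term and 73.0 ± 26.1 TPM in short-term lungs, against 113 ± 7.55 TPM in PBS lungs. It was lower in short-term lungs (-0.69, adjusted p = 0.0248 in limma; -0.38 with the trend removed, adjusted p = 0.011) and not called in long-term lungs (0.14, adjusted p = 0.831). Keap1, which restrains Nrf2, and Nqo1, a widely used Nrf2 target, were called in neither. Hmox1, which degrades haem, had 72.0 ± 12.7 TPM in long-term and 154 ± 15.5 TPM in short-term lungs, against 41.5 ± 4.03 TPM in PBS lungs. It was higher in both, by 0.77 (adjusted p = 0.00665) and 1.87 (adjusted p = 2.76e-05). Gstm1, a glutathione transferase, was lower in short-term lungs at 452 ± 61.6 TPM against 931 ± 31.0 TPM (-1.05, adjusted p = 0.000259). Nrf2 protein was not analysed here.

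Sod2 is a known target of NF-kB, so 14 genes of NF-kB feedback and inflammatory cytokines were set beside it. In long-term lungs 3 were higher and 0 lower (median 0.53), and 7 were higher with the trend removed. In short-term lungs 9 were higher and 1 lower (median 0.62), and 12 and 1 with the trend removed (median 0.80). Between the PM2.5 groups 2 were higher and 8 lower in long-term than in short-term lungs. Cxcl1, which attracts neutrophils, had 20.7 ± 4.51 TPM in long-term and 97.7 ± 2.55 TPM in short-term lungs, against 6.89 ± 2.73 TPM in PBS lungs, with differences of 1.50 (adjusted p = 0.00237 in limma) and 3.70 (adjusted p = 8.49e-06). Tnf was likewise higher in both, by 0.97 (adjusted p = 0.0401) and 2.63 (adjusted p = 0.000122). Nfkb1 was the gene called lower in short-term lungs (-0.82, adjusted p = 0.00767), while Nfkbia, the inhibitor made as feedback, was higher (0.55, adjusted p = 0.0019).

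Gpx4 was set beside 14 genes of lipid peroxidation and iron storage. In long-term lungs 4 were higher and 0 lower (6 and 0 with the trend removed), among them Alox15, which oxidises membrane lipids (15.9 ± 7.18 TPM against 6.03 ± 0.154 TPM in PBS lungs; 1.18, adjusted p = 0.0166 in limma), and the ferritin gene Ftl1 (0.73, adjusted p = 0.00412). In short-term lungs 3 were higher and 2 lower (7 and 1 with the trend removed). Fth1, the other ferritin gene, was higher there by 0.77 (adjusted p = 0.000995), and Ncoa4, which delivers ferritin for breakdown, was lower at 23.2 ± 12.6 TPM against 42.2 ± 2.11 TPM (adjusted p = 0.0325), a call lost with the trend removed (-0.41, adjusted p = 0.0561).

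**Figure D5:**
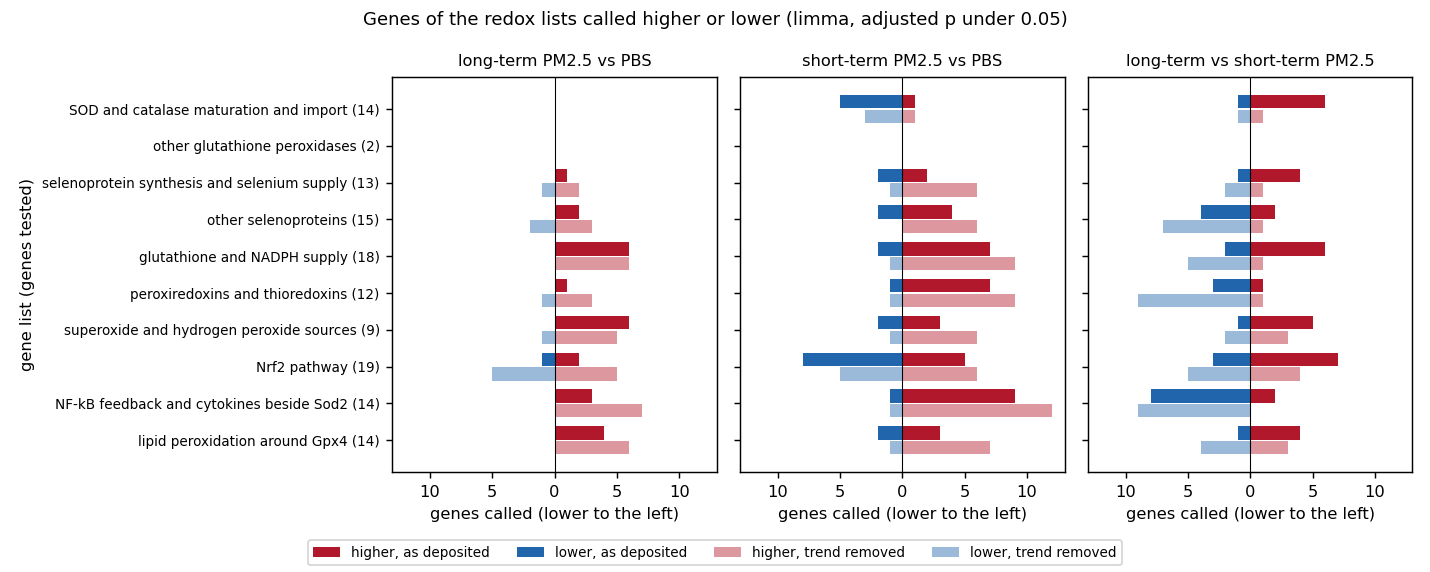
Number of genes called higher (right of 0) and lower (left of 0) in each list of related genes, in long-term PM2.5 against PBS, short-term PM2.5 against PBS and long-term against short-term PM2.5; the genes tested are in brackets. Dark bars are TPM as deposited and pale bars have the length and GC trend removed. For peroxiredoxins and thioredoxins, 7 of 12 are higher in the middle panel as deposited and 9 of 12 with the trend removed.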

How the data were processed

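Messenger RNA of whole lung was captured with oligo(dT) beads, and libraries were treated with DSN before DNBSEQ sequencing, per the labels' protocols. DSN is a nuclease that depletes abundant transcripts; TPM cannot show whether it did so equally in each library. The TPM table was computed and deposited by the authors; the submitters' processing notes list the tools RSEM, HISAT2, DESeq2 and Bowtie2, without versions, and the build GRCm38.p6 (for 8 of 9 samples). Column sums differ by at most 1.09 TPM, so depth is unknown. Genes of at least 1 TPM in 3 or more libraries (13991) were fitted as log2(TPM + 1), a scale that understates changes of low genes, in limma 3.58.1 (R 4.3.3) over all 3 groups, with 6 residual degrees of freedom and an intensity trend. Each comparison was tested two-sided and adjusted over its tested genes by Benjamini and Hochberg; an exact permutation test of 3 against 3 libraries cannot go below p = 0.1. The trend-removed values subtract natural splines of 5 degrees of freedom in the length and GC content of the longest curated transcript; 269 tested genes had no length and were left out. Strand use in counting is not stated. No other annotated gene overlaps the 8. The scripts were tested on simulated data. The 8 genes and the gene lists were chosen with earlier results of these data known. All 8 genes are named; other genes are named by rule: Nfe2l2, Keap1, Nqo1 and Hmox1, in each list up to 3 called genes per comparison with the smallest p, and the 3 genes closest to each member. Atox1, Ccs, Pex5, Gpx6, Gpx7, Gpx8, Rac2, Nfkb1, Nfkbia and Fgb were chosen after their values were seen. Alternatives were a pseudocount of 0.1, no filter, a mean of at least 5 TPM, median-ratio and quantile scaling, the compared groups alone, a replicate block, no intensity trend, the correction, and leaving out each library. Annotation and figures used Python 3.11.15.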

Additional observations from a re-analysis of the deposited data

Results flagged for a closer look

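The effect of long-term PM2.5 and the effect of short-term PM2.5, each against the same PBS libraries, differed for 6 of the 8 genes by the direct comparison of long-term with short-term lungs in limma. The difference between effects, long-term minus short-term on the log2(TPM + 1) scale, was 1.08 for Cat, which fell in short-term lungs. For the other 5 genes it was -1.11 for Sod2, -0.75 for Gpx2, -0.66 for Gpx3, -0.52 for Gpx4 and -0.29 for Sod1. The short-term group shares a control with the long-term group and has none of its own duration, so duration of handling and particle exposure cannot be told apart in these differences. Nor can the time from the last dose to collection, which the labels do not give.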

How the results depend on the processing

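Across 20 alternatives (18 planned and 2 added after seeing the data), Gpx2 stayed called in all 3 comparisons, as did Sod2 and Cat in both that involve the short-term group, and Gpx4 in short-term against PBS (0.28 to 0.99). In long-term against PBS, members called numbered 2 with quantile normalization or the length and GC correction and 3 in the fit of the compared groups alone, and ranged from 1 to 3 over the 9 fits that left out a library; with the correction and without short-term replicate 1, 4 were called, Cat included (-0.32, adjusted p = 0.00556). Genes called there numbered 1571 (1330 higher, 241 lower), against 920 at a mean of at least 5 TPM, 2583 with quantile normalization (1426 and 1157), 3881 with the compared groups alone (2500 and 1381), 3555 with the correction (1787 and 1768), 3311 with the correction by longest transcript of any kind, 5040 with the correction and without short-term replicate 1, and 853 (without PBS replicate 1) to 3157 (without short-term replicate 1) over leave-one-out fits. In short-term against PBS the split was 1632 higher and 5636 lower as deposited, 3421 and 3885 with median-ratio scaling, 3477 and 3745 with quantile normalization and 3272 and 3597 with the correction; members were 5 higher and 1 lower, and 3 and 2 with quantile normalization, where Gpx1 was lost (0.22, adjusted p = 0.0867). In long-term against short-term it was 6070 and 991, against 3762 and 2756, 2977 and 2996, and 2632 and 3043; 4621 to 9168 genes were called over leave-one-out fits, and members called were 3 with quantile normalization, where Sod1 (-0.043), Gpx3 (-0.31) and Gpx4 (-0.22) were lost, and 5 to 6 over leave-one-out fits.

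Directions turned as follows, and the cause was not tested. Gpx4 in long-term against PBS was -0.0020 with the correction, with and without short-term replicate 1. In short-term against PBS, Sod1 was -0.071 with quantile normalization, -0.26 with the correction and -0.23 with the correction and without short-term replicate 1, but 0.57 with median-ratio scaling and 0.69 with the correction by longest transcript, both called higher. Sod3 was 0.20 with median-ratio scaling and 0.24, 0.16 and 0.13 in the 3 corrections, and was called lower with quantile normalization (-0.40, adjusted p = 0.0154). Gpx3 was -0.0073 with quantile normalization and not called with the correction by longest transcript (adjusted p = 0.0694). In long-term against short-term, Sod3 was -0.38 with median-ratio scaling, -0.47, -0.40 and -0.35 in the 3 corrections, and -0.037 to 0.080 over leave-one-out fits. Gpx1 was 0.046 with quantile normalization and 0.022, 0.010 and 0.054 in the 3 corrections.

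No pairing of the libraries by replicate number was seen: 1 of 9 same-numbered pairs had a correlation of deviations over 0.1 (-0.29 to 0.26). Deviations from the mean of 3 libraries leave little to correlate, so this check cannot exclude a pairing. With the replicate number as a block, 1125, 6376 and 6111 genes were called in the 3 comparisons and the Sod1 call in long-term against short-term was lost (adjusted p = 0.0572); no other call of the 8 genes changed. TPM keeps no read depth, so counting error is unknown.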

Other observations

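The genes whose TPM followed a member most closely over the 9 libraries were looked up for each member by Pearson's r on the log2(TPM + 1) scale. For Gpx2 these were Slpi, an inhibitor of neutrophil elastase in airway mucus (r = 0.996), Noxo1, an organiser of an epithelial NADPH oxidase (0.995), and Msrb1 (0.987). Slpi averaged 104 ± 16.6 TPM in long-term and 211 ± 46.7 TPM in short-term lungs, against 38.3 ± 4.50 TPM in PBS lungs, and Noxo1 averaged 25.6 ± 4.23, 60.4 ± 13.5 and 8.18 ± 1.03 TPM in the same groups. For Sod2 they were Ccl7, a monocyte-attracting chemokine (0.996; 2.86 ± 0.715 TPM in long-term, 31.4 ± 8.22 TPM in short-term and 0.760 ± 0.114 TPM in PBS lungs), Cstdc5 (0.996) and Fbl, a methyltransferase of ribosomal RNA processing (0.992). Ccl7 passed the filter on low values only through libraries of the PM2.5 groups, so its closeness to Sod2 gives no support.

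For Cat the closest were Zmiz1 and Rassf3 (0.998 each) and the histone acetyltransferase gene Ep300 (0.997). Gpx4 was followed by Sec61b (0.994), Cox14 and Arpc4 (0.990 each), Gpx1 by Acaa1a (0.979), Lhpp (0.975) and Cyba (0.974), Gpx3 by Creld1 (0.980), Dpysl2 (0.957) and Mlf2 (0.951), Sod1 by Cpsf4 (0.979), Nrbp1 (0.960) and Farsa (0.941), and Sod3 by Rtl8b (0.910), Cdk16 (0.893) and Tmem109 (0.882). Between members, Cat and Gpx4 gave r = -0.989 and Gpx1 and Gpx2 gave 0.955. The 9 libraries share 3 groups and a length trend, and these correlations carry no test.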
